A study of Mus musculus with 7 samples.

Results

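The genes described here encode the receptor chains for GM-CSF and IL-3: Csf2rb and Csf2rb2, the beta chains, and Csf2ra and Il3ra, the alpha chains. These 4 genes, of 21951 protein-coding genes in the annotation, were examined for occupancy by GATA2 and by 9aa-Ins, a pathogenic form of GATA2 in which extra residues lengthen the spacer between the zinc fingers. A peak was assigned to a gene when its summit, the position of highest read density, lay inside the gene or within 100 kb of its start. By this rule the genes held 9 of 6254 GATA2 peaks and 2 of 1079 9aa-Ins peaks.

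The peaks came from CUT&Tag, in which a transposase held at a bound protein by an antibody tags the surrounding DNA for sequencing. Every sample was made from hi-77-/- cells, a Hoxb8-immortalized line of hematopoietic progenitors from mouse fetal liver that lacks the -77 enhancer of Gata2 and grows in medium with β-estradiol. A retrovirus carried either GATA2 or 9aa-Ins, each with an HA tag, and live infected GFP+ cells were sorted after 3 days of culture. Anti-HA antibody therefore measured the virally expressed protein and not the endogenous GATA2 that these cells still have. The cells of a condition were pooled and split into 2 replicates, and each of the 2 analysed lists merges its pair of anti-HA libraries. The labels describe 3 more libraries, made with antibody to GATA2 itself, whose peaks are not analysed here. Without separate replicates no value below has an SD, and no difference between the lists could be tested. Peak lists hold no transcript levels, so the labelled cell type could not be checked against marker genes.

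The common beta chain is shared by the receptors for GM-CSF, IL-3 and IL-5, each of which adds its own ligand-binding alpha chain. In the mouse the gene was duplicated: Csf2rb encodes the shared chain and Csf2rb2 encodes a beta chain specific to the IL-3 receptor. Ligand binding brings alpha and beta chains together and activates Jak2, which phosphorylates Stat5, and the pathway drives growth and survival of myeloid progenitors and the function of alveolar macrophages. GATA2 binds the hexamer WGATAR, which is A or T, then GATA, then A or G, on either strand.

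Csf2rb (ENSMUSG00000071713.6) and Csf2rb2 (ENSMUSG00000071714.7) lie next to each other on chromosome 15. On mm10 (GRCm38), Csf2rb covers chr15:78325752-78353847 on the plus strand and Csf2rb2 covers chr15:78282507-78305721 on the minus strand, so they point away from each other with their starts 20031 bp apart. The GATA2 list had 5 peaks in this cluster, and the 9aa-Ins list had none. The highest site lay between Ncf4 and the end of Csf2rb2 and had a neighbouring site to each side, another site lay between the divergent starts, and the last lay at the promoters of Mpst and Tst. The highest site and the site between the starts held the GATA2 motif within 100 bp of the summit, and their sequences are shown for that reason. The sequence of the highest site, chr15:78267899-78268099, plus strand, is given with both WGATAR hexamers in capitals.

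Highest site, 201 bases around the summit: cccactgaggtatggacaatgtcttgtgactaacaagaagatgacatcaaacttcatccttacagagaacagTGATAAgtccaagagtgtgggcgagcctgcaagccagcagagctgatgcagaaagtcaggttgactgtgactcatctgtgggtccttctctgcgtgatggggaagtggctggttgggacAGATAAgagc

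The site between the starts stood apart because its sequence occurs again in the genome. The 201 bases around its summit, chr15:78318927-78319127, plus strand, are shown above the matching stretch, chr15:78312473-78312673, minus strand. Each GATA core is in capitals, and both sequences run from upstream towards the start of the respective gene.

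Site upstream of Csf2rb: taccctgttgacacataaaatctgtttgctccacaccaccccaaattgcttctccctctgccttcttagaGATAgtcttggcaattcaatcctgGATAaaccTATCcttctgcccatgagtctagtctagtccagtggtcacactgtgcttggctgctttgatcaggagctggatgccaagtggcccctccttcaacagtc
Copy upstream of Csf2rb2: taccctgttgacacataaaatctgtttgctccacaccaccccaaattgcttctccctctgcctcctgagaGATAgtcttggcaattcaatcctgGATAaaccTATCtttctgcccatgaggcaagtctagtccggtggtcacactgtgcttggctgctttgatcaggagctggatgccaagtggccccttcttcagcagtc

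The highest site of the cluster, chr15:78267808-78268173, had a pileup of 35 reads over its summit, with a Poisson interval (95%, exact) of 24.4 to 48.7. The pileup is the number of reads covering the summit in the merged libraries, and all intervals here cover counting error only, since PCR reads without molecular identifiers are not independent molecules. Fold enrichment is the pileup plus 1 over the background plus 1 and puts the peaks in the same order: it was 24.6 here, 8.88 to 13.7 at the other 8 GATA2 peaks, and 8.93 and 7.56 at the 9aa-Ins peaks. The rank of the highest site was the 96.1th percentile of GATA2 peaks, whose pileups ran from 9 to 166 with a median of 15. The site was intergenic, 37.7 kb downstream of the Csf2rb2 start and 57.8 kb upstream of the Csf2rb start, with the start of Ncf4, a subunit of the phagocyte NADPH oxidase, 23.2 kb away. The hexamer TGATAA lay 23 bp to the left of the summit and AGATAA 91 bp to the right. A match to TGANTCA, the motif of AP-1 factors, lay 39 bp to the right of the summit, at the only one of the 9 peaks that had it, against 6.33% of all GATA2 peaks.

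Both neighbours of this site lacked a GATA core within 100 bp of the summit. The site at chr15:78278222-78278748 had a pileup of 19 reads (interval 11.4 to 29.7) and lay 10.4 kb from the highest site, 4.09 kb beyond the 3′ end of Csf2rb2. It had 1 WGATAR hexamer elsewhere in its 527 bp. The site at chr15:78257681-78257905 had a pileup of 12 reads (interval 6.20 to 21) and lay 10.2 kb to the other side, in an intron of Ncf4. The intervals of these neighbours overlapped each other, and the interval of the 12-read site lay wholly below that of the highest site.

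The site between the divergent starts, chr15:78318927-78319118, had a pileup of 14 reads (interval 7.65 to 23.5) and a fold enrichment of 10.2, at the 42.7th percentile of GATA2 peaks. Its summit lay 6.72 kb upstream of Csf2rb and 13.3 kb upstream of Csf2rb2, the nearest GATA2 summit to either start. The hexamer AGATAG lay 26 bp to the left of the summit. A GATA core on the plus strand lay 3 bp to the left of the summit and another on the minus strand 2 bp to the right, so that the summit fell between a pair of cores facing each other. Neither of these was preceded and followed by the bases of WGATAR. The last site, chr15:78406460-78406698, had a pileup of 15 reads (interval 8.40 to 24.7), lay 80.9 kb downstream of the Csf2rb start and sat at the divergent promoters of Mpst and Tst, which encode sulfurtransferases.

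The genes themselves carried no summit. No GATA2 summit lay inside Csf2rb or Csf2rb2, and 3 of the 5 lay beyond the 3′ end of Csf2rb2. The 5 summits spanned 149 kb, with gaps of 40.6 kb from the 19-read site to the site between the starts and 87.6 kb from there to Mpst, where the median gap between neighbouring summits was 78.8 kb over the whole GATA2 list. The GATA2 motif was far more frequent than the peaks. The 149 kb held 313 WGATAR hexamers, of which 3 lay within 100 bp of a GATA2 summit. The stretch between the starts held 41 hexamers with 1 near a summit, the Csf2rb gene 67 with 0, and the Csf2rb2 gene 62 with 0.

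**Figure D1:**
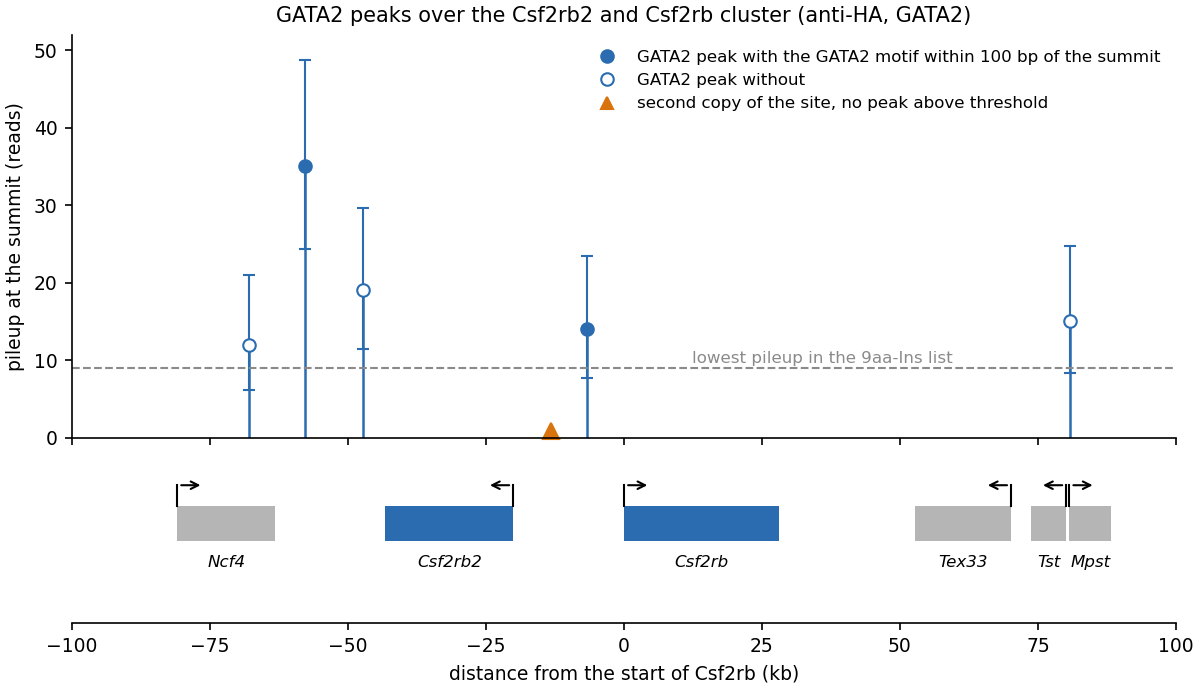
Pileup at each GATA2 summit (points, with exact Poisson 95% intervals for counting error) against distance from the Csf2rb start in kb, over the genes with arrows at their starts. The site of 35 reads lies between Ncf4 and Csf2rb2, the site of 14 reads lies between the divergent starts, and the triangle marks the second copy of that site, 13.2 kb upstream of Csf2rb, where no peak passed the threshold of either list.

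The 5 summits were shared between the genes by distance: Csf2rb had 5 GATA2 peaks and Csf2rb2 had 4, of which 4 were the same peaks. At least 5 peaks were found for 7.51% of protein-coding genes and at least 4 for 11.6%, with a median of 1 peak per gene. These counts rest on the distance allowed: within 50 kb Csf2rb had 2 peaks and Csf2rb2 4, and within 10 kb Csf2rb had 1 and Csf2rb2 0. The Mpst peak was counted for Csf2rb alone, because it lay 101 kb from the Csf2rb2 start, just outside the limit. The next GATA2 peaks outside the limit were 351 kb upstream of Csf2rb, nearest to Eif3d, with a pileup of 10 reads, and 246 kb downstream, nearest to Rac2, with a pileup of 19 reads. No 9aa-Ins peak lay nearer than 1365 kb to the Csf2rb start, where the median gap between neighbouring 9aa-Ins summits was 453 kb.

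The duplication of the beta chain genes took in the sequence around the site between the starts. Of the bases of the Csf2rb gene, 85.8% aligned to Csf2rb2 and 70.6% in blocks of at least 90% identity. Of the 10 kb upstream of the Csf2rb start, 85.5% aligned to the Csf2rb2 side. The 201 bases at the GATA2 summit were among them, and the matching stretch was centred 6.85 kb upstream of the Csf2rb2 start, against 6.72 kb for the summit and the Csf2rb start. The stretches lay 6.45 kb apart and were identical at 193 of 201 bases (96.0%), with no gap. This stretch was the one other match of the site in the genome by BLASTN, and the other 4 sites of the cluster had no other match.

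Counted from 1 at the 5′ end of the printed sequences, with the Csf2rb base first, the 8 substitutions were T64C, T67G, C107T, T121G, T123A, A134G, C190T and A196G. None of them fell in a GATA core, so that the copy kept the 3 cores of the site with a peak. The hexamer AGATAG at positions 70 to 75 stood in both. C107T was the base next to the minus-strand core, and the copy had a second WGATAR match there, at positions 102 to 107, which the site with a peak lacked. The copy thus held 2 WGATAR hexamers and the site with a peak 1. Seen from Csf2rb, the copy was centred 13.2 kb upstream of the start. No peak of either list overlapped it, which says only that no peak passed the threshold there and does not show that the copy was unoccupied. The study's other measurements over this stretch are not analysed here.

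Sequence this similar also limits where a read can be placed. Of the 157 words of 36 bases in the peak, 52 (33.1%) occurred unchanged in the copy. Among all GATA2 peaks, 2.19% had any such word of their summit window again within 100 kb, and 0.288% had as many as this site. Within the Csf2rb gene, 19% of such words occurred in the Csf2rb2 copy, and 6.21% within 1 kb of the start. How reads matching both copies were placed is not given in the sources used here, and its part in the missing peak at the copy, or in the missing summits inside both genes, was not tested.

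**Figure D2:**
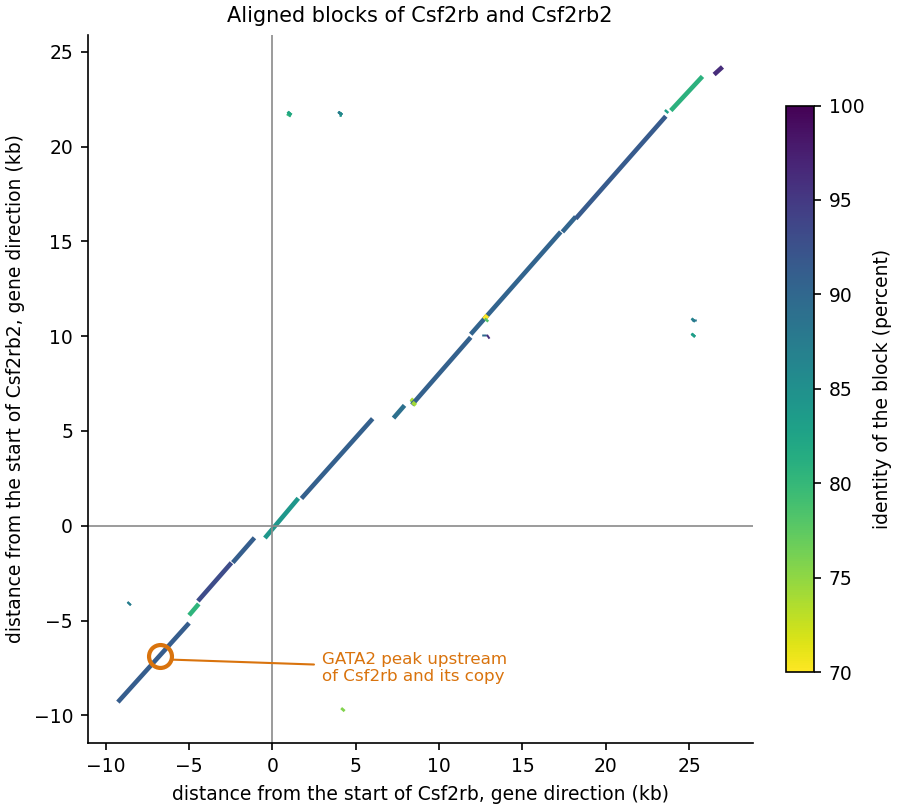
Blocks of Csf2rb (horizontal axis, kb from its start) aligned to Csf2rb2 (vertical axis, kb from its start), coloured by percent identity, with both genes read in their own direction. The circle marks the GATA2 site 6.72 kb upstream of Csf2rb and its copy 6.85 kb upstream of Csf2rb2, inside a long block that continues the near-diagonal run through both genes.

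Csf2ra (ENSMUSG00000059326.7), which encodes the GM-CSF receptor alpha chain, was the one gene of the 4 where 9aa-Ins had peaks. It covers chr19:61223957-61228429 on the minus strand, close to the end of chromosome 19. GATA2 had 3 peaks and 9aa-Ins 2 peaks, and both 9aa-Ins peaks overlapped a GATA2 peak, as did 88% of all 9aa-Ins peaks. The sequences of both shared sites are printed to show that neither had WGATAR within 100 bp of the GATA2 summit (plus strand, chr19:61227211-61227411 and chr19:61266851-61267051).

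Shared site inside Csf2ra, 201 bases: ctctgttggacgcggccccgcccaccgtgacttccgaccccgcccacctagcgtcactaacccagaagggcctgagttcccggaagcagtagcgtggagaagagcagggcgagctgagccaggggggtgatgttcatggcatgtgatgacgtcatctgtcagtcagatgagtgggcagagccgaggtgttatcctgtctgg
Shared site upstream of Csf2ra, 201 bases: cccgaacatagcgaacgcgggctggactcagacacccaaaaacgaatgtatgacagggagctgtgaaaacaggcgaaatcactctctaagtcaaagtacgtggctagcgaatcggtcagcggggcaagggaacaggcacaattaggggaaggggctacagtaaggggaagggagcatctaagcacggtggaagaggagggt

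The site inside Csf2ra was chr19:61227125-61227708 in the GATA2 list, with a pileup of 17 reads (interval 9.90 to 27.2), and its summit lay 1.12 kb past the gene start, within the promoter of another annotated transcript. In the 9aa-Ins list it was chr19:61227205-61227673, with a pileup of 12 reads (interval 6.20 to 21). The peaks shared 469 bp, their summits were 206 bp apart, and the intervals of their pileups overlapped. The GATA2 window held 2 matches of GGGCGG (the GC box), 3 of CANNTG (the E-box) and 3 of GGAA (the ETS core), and a single GATA core 89 bp from the summit.

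The upstream shared site was chr19:61266830-61267102 in the GATA2 list, also with a pileup of 17 reads (interval 9.90 to 27.2), and chr19:61266813-61267065 in the 9aa-Ins list, with a pileup of 10 reads (interval 4.80 to 18.4). It lay 38.5 kb upstream of the Csf2ra start, the peaks shared 236 bp and the summits were 98 bp apart. Again the intervals overlapped. The GATA2 window held no GATA core and 4 ETS cores. The 9aa-Ins pileup of 10 was at the 9.87th percentile of its list, near the lowest pileup of 9 that either list contains. The window around the 9aa-Ins summit had 2 other matches in the genome of at least 90% identity over at least 161 bases, the best at chr19:61199674-61199852 with 94.4%.

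The third GATA2 site, chr19:61265376-61265826, 37.2 kb upstream, had a pileup of 14 reads (interval 7.65 to 23.5) and no 9aa-Ins counterpart. It had a GATA core 58 bp from the summit and its window was 36.8% soft-masked repeat, with 38 other matches in the genome, the best 85.7% identical. The intervals of the 3 GATA2 sites of Csf2ra overlapped one another. The next GATA2 peak outside the limit lay 144 kb downstream, nearest to Zfp950, with a pileup of 11 reads, and neither list had a further peak on the side of the chromosome end.

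Il3ra (ENSMUSG00000068758.8), which encodes the IL-3 receptor alpha chain, covers chr14:14346275-14356011 on the plus strand and had 1 GATA2 peak and no 9aa-Ins peak. The peak, chr14:14345779-14346120, had a pileup of 13 reads (interval 6.92 to 22.2), at the 33.1th percentile, and its summit lay 463 bp upstream of the gene start. It was the summit nearest to a start among the 4 genes, in the promoter of Il3ra and over the antisense transcript Gm48860. CUT&Tag reads carry no transcript strand, so the peak cannot be assigned to either. The 61 bases at the summit (chr14:14345782-14345842, plus strand) are printed because 2 GC boxes flanked the summit, 13 and 19 bp away, while the only GATA core was 49 bp off and outside this stretch.

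Il3ra promoter site, 61 bases: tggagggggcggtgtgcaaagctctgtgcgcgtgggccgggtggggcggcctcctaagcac

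The window around this summit had 63.7% G and C. The next GATA2 peak lay 258 kb upstream, nearest to Psmd6, with a pileup of 22 reads. The nearest 9aa-Ins summit on chromosome 14 was 2019 kb from the Il3ra peak.

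**Figure D3:**
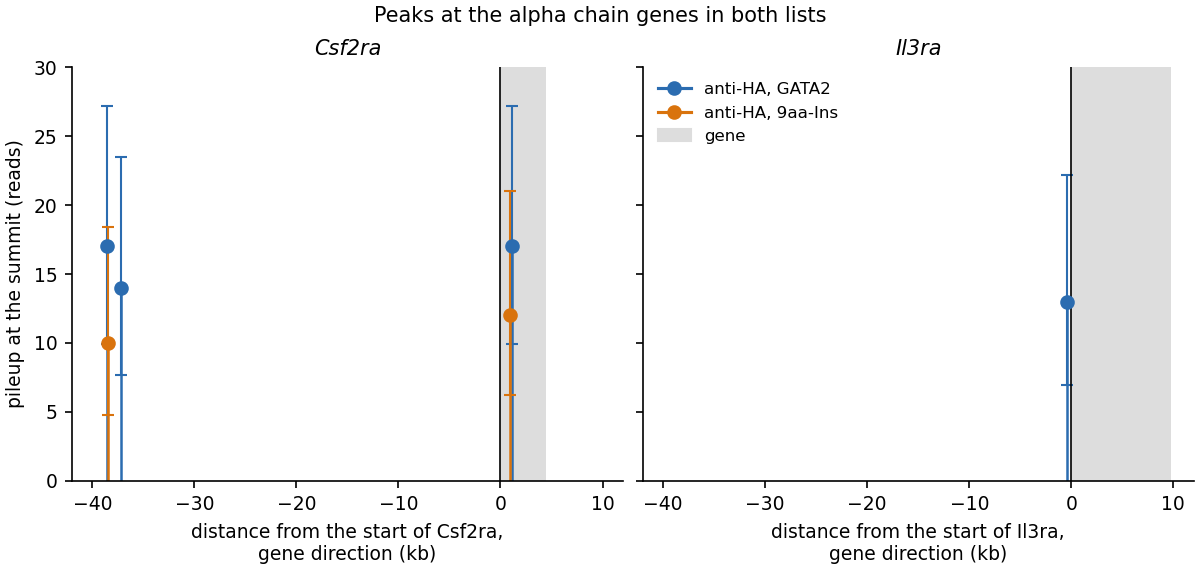
Pileup at the summits of both lists (points, with exact Poisson 95% intervals for counting error) against distance from the gene start in kb, with the gene shaded. Csf2ra has 2 sites with a point of each colour close together, 17 reads against 12 inside the gene and 17 against 10 upstream, and Il3ra has a single GATA2 point of 13 reads.

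Over the family, all 4 genes had at least 1 GATA2 peak by this rule, as did 52.5% of all protein-coding genes. A 9aa-Ins peak was found for 1 of 4, Csf2ra, against 18.6% of protein-coding genes. A GATA2 summit within 10 kb of the start was found for 3 of 4 (Csf2rb, Csf2ra and Il3ra), against 21.7%. With 4 genes, 2 of which share their peaks, these counts are a description. Of the 9 GATA2 peaks, 2 overlapped a 9aa-Ins peak, against 15.3% of all GATA2 peaks, and both were at Csf2ra.

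The 7 GATA2 peaks without a 9aa-Ins counterpart differed in height. The GATA2 background was 0.464 reads and that of 9aa-Ins was 0.455 reads, nearly equal, and the lowest 9aa-Ins pileup listed was 9 reads. A pileup of 9 reads has its own Poisson interval, 4.12 to 17.1. The interval of the 35-read site near Csf2rb2 lay above it, and those of the other 6 sites, including the 19-read site, the site between the starts and the Il3ra promoter, overlapped it. Against the value of 9 alone, the intervals of 2 of the 7 sites, with 35 and 19 reads, lay above it. A difference from 9aa-Ins was not tested at any of the 7 sites, since no 9aa-Ins reads are listed there. Library totals were not analysed here, and absence from the 9aa-Ins list says only that no peak passed its threshold.

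**Figure D4:**
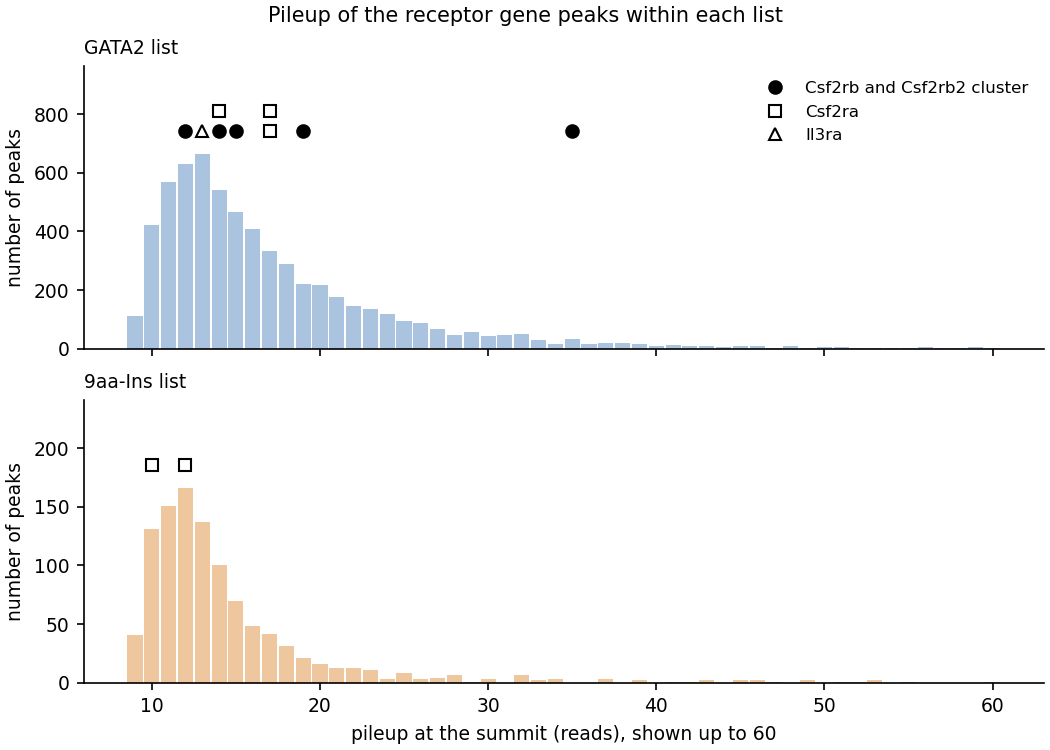
Number of peaks at each pileup (reads at the summit, drawn up to 60) in the GATA2 list and the 9aa-Ins list, with the peaks of the receptor genes as symbols above the bars, stacked where pileups are equal. Of the 9 GATA2 symbols 8 sit between 12 and 19 reads, in the bulk of the list, and 1 at 35 reads, and the 2 symbols of the 9aa-Ins list sit at 10 and 12 reads.

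The GATA2 motif was present near the summit of 2 of the 9 peaks, against 30.3% of all GATA2 peaks, and both were in the beta chain cluster. The GATA core alone was present at 5 of 9, against 48.2%. E-boxes were present at 7 of 9, against 53.9%, ETS cores at 8 of 9, against 88.2%, and GC boxes at 2 of 9, against 39.2%. The RUNX motif TGTGGT was present at 1 of 9, the repeat-rich site upstream of Csf2ra, against 16.2%. A composite of an E-box followed by WGATAR at 6 to 14 bases, the arrangement bound by GATA and TAL1 together, was present at 0 of 9, against 3.01%. Both strands were searched for each motif to 100 bp from the summit, the GATA core lies within WGATAR, and the match of TGANTCA overlapped an E-box. Neither 9aa-Ins peak held WGATAR, against 12.1% of all 9aa-Ins peaks with it.

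**Figure D5:**
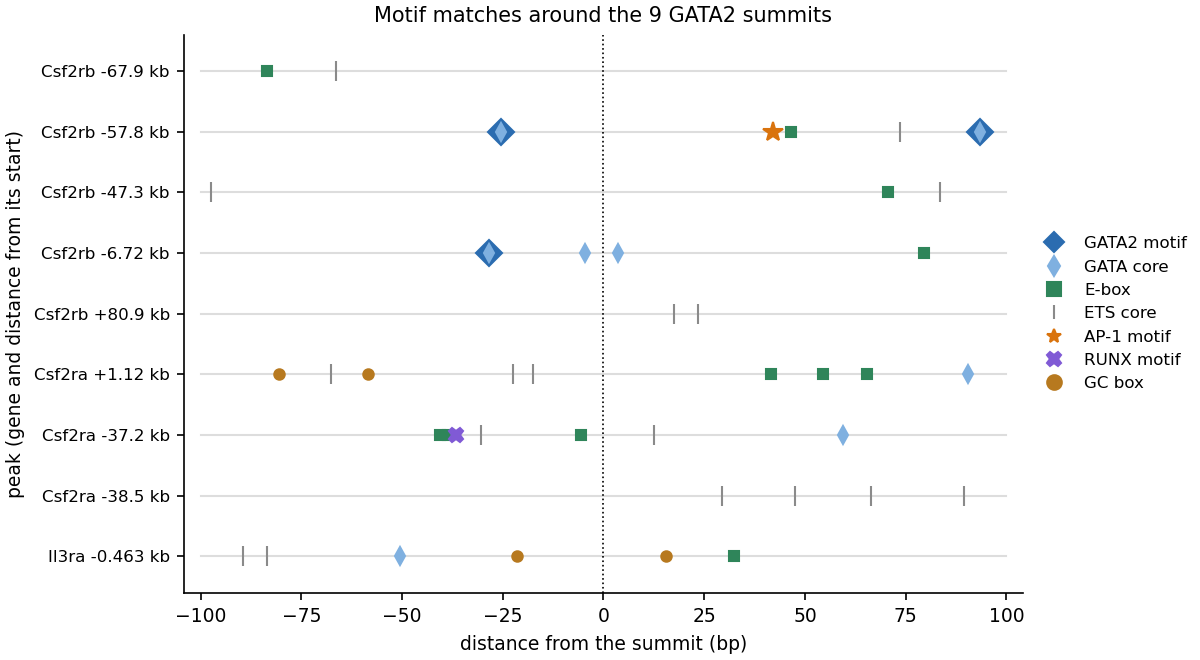
Position of each motif match relative to the summit in bp (0 is the summit) for the 9 GATA2 peaks, labelled by gene and distance from its start. The GATA2 motif appears 2 times in the row at -57.8 kb and 1 time in the row at -6.72 kb of Csf2rb, where 2 further GATA cores straddle the summit, and in no other row.

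The annotated promoters were a separate question, since the Il3ra summit was the one GATA2 summit within 1 kb of the start of a receptor gene. RefSeq promoter sequences on GRCm38, 250 bases before to 50 after the start, were matched for Csf2rb2, Csf2ra and Il3ra. The RefSeq start was the same as the gene start used above for Csf2rb2, 11 bp downstream of it for Csf2ra and 220 bp downstream of it for Il3ra. WGATAR occurred once in that of Csf2rb2, 38 bases before the start, once in that of Il3ra, 147 bases before the RefSeq start and 73 bases past the gene start used above, and not in that of Csf2ra, whereas 29.8% of 32851 such promoters held it. No peak of either list overlapped any of these RefSeq windows. With windows of the same size on the gene starts used above, the GATA2 peak at Il3ra overlapped by 96 bp, and the windows of Csf2rb2 and Csf2ra had no overlap. Csf2rb had no entry.

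The genes that act with these receptors were taken as a list of 36, ordered by role, of which 32 had a GATA2 peak and 15 a 9aa-Ins peak by the same rule (52.5% and 18.6% of all protein-coding genes). Where a gene had several peaks, the values are those of the highest unless stated otherwise, and lower peaks can lie nearer its start. Of the 3 ligand genes, all had a GATA2 peak. Csf2 and Il3, which encode GM-CSF and IL-3 and lie side by side, shared 1 peak of 13 reads (interval 6.92 to 22.2) with WGATAR, 47.9 kb from the Csf2 start and 65.5 kb from the Il3 start. Il5, which encodes IL-5, had 6 GATA2 peaks and 1 9aa-Ins peak, of 11 reads. That 9aa-Ins peak lay 65.9 kb from the Il5 start and overlapped no GATA2 peak. Il5ra, the alpha chain that binds IL-5, had no peak in either list.

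Of 17 transducers, 16 had a GATA2 peak and 4 a 9aa-Ins peak (among them Tyk2, Vav1 and Ywhaz). Jak2, the kinase bound to the common beta chain, had 1 GATA2 peak with WGATAR, 10.1 kb upstream, with a pileup of 10 reads (interval 4.80 to 18.4). Stat5a, Stat5b and Stat3 lie together and shared a peak of 29 reads (interval 19.4 to 41.6) without WGATAR. These genes also shared a peak of 25 reads at the Stat3 start, likewise without WGATAR. Grb2, an adaptor to the Ras pathway, had a peak of 36 reads (interval 25.2 to 49.8), 4.38 kb upstream, and no 9aa-Ins peak. Ywhaz, a 14-3-3 protein, had 29 reads with GATA2 and 20 reads with 9aa-Ins, 4.28 kb past its start, and Vav1, a guanine nucleotide exchange factor, had 29 and 15 reads, 11.3 kb past its start. Tyk2, a Janus kinase, had 23 and 12 reads, 39.3 kb past its start. Lyn, a Src family kinase, had a peak of 18 reads with WGATAR 18 kb upstream. Jak1, Shc1, Gab2, Ptpn11, Pik3r1 and Pik3cd had between 1 and 3 GATA2 peaks each, and Sos1 had none.

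Of 8 inhibitors, 7 had a GATA2 peak and 5 a 9aa-Ins peak (Cish, Socs1, Ptpn6, Inpp5d and Sh2b3). Cish, a feedback inhibitor induced by Stat5, had the highest GATA2 pileup of the list, 44 reads (interval 32.0 to 59.1), 15.2 kb upstream of its start, with a 9aa-Ins pileup of 15 reads there. Ptpn6, the phosphatase SHP-1, had 39 reads (interval 27.7 to 53.3) with GATA2 at 90.6 kb upstream and 19 reads with 9aa-Ins. Sh2b3, the adaptor Lnk, had 17 and 12 reads inside the gene near its start. At Socs1 and Inpp5d, the highest pileups were 9 and 15 reads with GATA2 and 9 and 10 reads with 9aa-Ins, in peaks that did not overlap. Socs2 and Cbl had 1 GATA2 peak each, and Socs3 had none.

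Of 7 targets, 6 had a GATA2 peak and 5 a 9aa-Ins peak (Bcl2l1, Mcl1, Myc, Ccnd3 and Egr1). Mcl1, a survival factor, had 37 reads (interval 26.1 to 51.0) with GATA2 and 17 reads with 9aa-Ins, 33.6 kb upstream. Bcl2l1, which encodes Bcl-xL, had 34 reads (interval 23.5 to 47.5) with GATA2 and 10 reads with 9aa-Ins, 42.4 kb past its start. Myc, the growth-promoting transcription factor, had 32 reads (interval 21.9 to 45.2) with GATA2 and 12 reads with 9aa-Ins, both at its start. Egr1, an immediate early transcription factor, had up to 31 reads with GATA2, 1.09 kb past its start. The highest 9aa-Ins pileup of Egr1, 15 reads, lay at another site, 94.7 kb past the start. Ccnd3, which encodes cyclin D3, had up to 19 reads with GATA2 and 14 reads with 9aa-Ins, both 90.8 kb past its start. Pim1 had 3 GATA2 peaks and no 9aa-Ins peak, and Bcl2 had no peak. Counted as peaks, 17 of the 84 GATA2 peaks of the list overlapped a 9aa-Ins peak, 28 held WGATAR, and 17 of its 21 9aa-Ins peaks overlapped a GATA2 peak. Over all GATA2 peaks these shares were 15.3% for overlap and 30.3% for WGATAR, and 88% of all 9aa-Ins peaks overlapped a GATA2 peak.

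Of 3 other shared cytokine receptor chains, Il2rg had 1 GATA2 peak, Il2rb 2 and Il6st none, and none had a 9aa-Ins peak. Il2rb, which encodes the beta chain of the IL-2 and IL-15 receptors, starts 170 kb from Csf2rb on chromosome 15. Its highest GATA2 peak was the 19-read peak near Rac2, 76.6 kb from the Il2rb start and 246 kb from that of Csf2rb. Its other GATA2 peak was the 15-read peak at the promoters of Mpst and Tst, which was also counted for Csf2rb.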

How the data were processed

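According to the study's methods, the authors aligned reads to mm10 with Bowtie2, removed duplicated and blacklisted reads, and called peaks with MACS3 at a q-value of 1e-06. The submitters' processing notes list the same tools and deepTools, without versions. The labels say that both replicates were merged, whereas the methods describe merging of peaks called in each. The authors' score for each peak is its −log10 q-value multiplied by 10, cut to a whole number, and was used for q-value thresholds. Their fold enrichment is a deposited ratio of pileup plus 1 to background plus 1. The deposited −log10 p-value and summit offset were also used, and 0 columns belonged to other samples.

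Pileups were recovered from the steps of the fold enrichment, and 100% came out whole within 0.01 in both lists. Recomputing the −log10 of each Poisson p-value from these pileups gave the deposited value to within 5.32e-04. Positions are 1-based, and gene models are those of GENCODE M21 (GRCm38, which is mm10). Promoters were taken as the 2 kb before and 100 bp after each protein-coding transcript start. Overlap meant at least 1 bp. Motif positions are the distance from the summit to the nearest base of the match. Second matches of the 201-bp summit window were sought with BLASTN 2.17.0 at an E value of 1e-10. Other steps used Python 3.11.15, numpy 2.4.6, scipy 1.17.1 and pysam 0.24.0. Pileup recovery was tested on simulated data, and gene reach, distance and motif search on short constructed cases. The overlap rule was not tested in this way. The percentile of a peak is its mid-rank by pileup within its list.

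Genes were named by rule: the 4 receptor genes, all their peaks, the nearest peak outside the limit, neighbouring genes and the signalling list, with values for genes with a 9aa-Ins peak and for the 5 highest GATA2 pileups. The values of 1 gene of that list are not reported here. Lyn, Jak2, Stat5a, Csf2 and Il3 are given beyond that for their roles. Members, gene list and motifs were chosen with earlier results of these data known, and the copy of the site upstream of Csf2rb was followed up after its values were seen.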

Additional observations from a re-analysis of the deposited data

How the results depend on the processing

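No paired analysis was possible because the replicates of a construct are merged into 1 list, and leaving out a replicate could not be run for the same reason. Of 75 values recomputed under other settings, 61 stayed within 1.5 times. These 61 include the 9aa-Ins counts at Csf2rb, Csf2rb2 and Il3ra, which were 0 under every setting. With a reach of 10 kb in place of 100 kb, the GATA2 peaks at the receptor genes fell from 9 to 3 and the 9aa-Ins peaks from 2 to 1. Csf2rb went from 5 GATA2 peaks to 2 at 50 kb and to 1 at 10 kb, Csf2rb2 from 4 to 0 at 10 kb, and Csf2ra from 3 to 1. The 9aa-Ins count was also 1 at a q-value of 1e-08 and at 1e-10, where the peak of 10 reads upstream of Csf2ra was lost, while all 9 GATA2 peaks passed both. By summits within 200 bp, 1 GATA2 peak was shared in place of 2, since the summits inside Csf2ra were 206 bp apart. WGATAR was found in 4 peaks over the whole peak and a GATA core in 5, in place of 2. The signalling list held 22 to 33 of 36 genes with a GATA2 peak and 10 to 17 with a 9aa-Ins peak, where the shares of all protein-coding genes at these settings were 24.7% to 65.5% and 5.93% to 27.9%. A pileup of 9 reads was the lowest listed, so weaker occupancy could not be seen at this depth.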
